A study of Rattus norvegicus with 4 samples.

Results

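The tumour necrosis factor (TNF) superfamily pairs trimeric ligands, most of them made as membrane proteins and some shed, with cell-surface receptors. Receptors with a death domain can start caspase signalling, and the others recruit TRAF adaptors and feed the canonical and alternative NF-kB pathways. In macrophages the family is best known for TNF itself, for RANK in osteoclast formation, and for BAFF and APRIL, which sustain B cells. The members described here are the genes whose array name begins with Tnfrsf or Tnfsf and a number, leaving out the TNF receptors Tnfrsf1a and Tnfrsf1b, together with Fas, Faslg, Ltbr, Lta, Ltb, Cd27, Cd70 and Ngfr. The rule gave 35 genes, 15 ligands and 20 receptors, on 42 of the 45598 probes of the array. The rule goes by gene name.

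The cells were NR8383, a rat alveolar macrophage line started from the lung lavage of a normal rat, which grows partly attached and partly floating. All 4 samples were controls kept submerged, taken after 20 passages in DMEM with 15% heat-inactivated bovine serum, glutamine, penicillin, streptomycin and amphotericin B. The design text calls the samples biological replicates. It gives 4 h of submersion, while the treatment protocol gives 48 h after seeding. No second condition was analysed here, so the design asks which members these cells express and how far replicates differ.

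Macrophage markers were present: Cd68, Csf1r, Spi1, Cd14, Lyz2, Mrc1, Ptprc and Itgam were detected, and Cd163 and Marco were not. Other cell types had fewer markers detected, 3 of 8 for T cells (Cd3d, Lck, Cd28), 2 of 5 for NK cells, 2 of 5 for neutrophils, 2 of 5 for fibroblasts, 2 of 4 for endothelium and 0 of 5 for epithelium. Of all named genes 50.9% were detected, so shares near that say little of a cell type. Of the other T cell markers, Cd8b was detected on 3 arrays, and Cd3e, Cd3g, Cd2 and Cd8a on none. The neutrophil marker S100a8 was also detected on 3 arrays. Of the B cell markers reported, Cd79a and Pax5 were detected, and Ms4a1, Cd79b and Cr2 were on no array. Detection of a probe on 1 array required the flag for signal well above background on more than 0.5 of its spots. A gene is called detected where some probe of it met this on each of the 4 arrays. Signals are processed fluorescence units, given for replicates 1 to 4 in that order. A level is the log2 ratio of a signal to the 75th percentile of its array (1317, 1489, 1179 and 958 units). Signals of different probes depend on the probe and are not ranked against each other.

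Which probe stands for a gene bears on several calls below, so the last 30 bases of the 60-base probes of the genes discussed first are given 5′ to 3′, as deposited. They are shown because pairs of probes for Faslg, Fas and Tnfsf13b gave different answers, and because Tnfsf12 and Tnfsf13 are neighbouring ligands and Ltb and Ltbr a ligand and its receptor, all detected. Capitals mark a run of 7 TG repeats.
Faslg probe 1: acgcgtacattacggagtacatattagaaa
Faslg probe 2: tgcagaggctgtgtaTGTGTGTGTGTGTGt
Fas probe 1: ggttatatcaagtgggcccattttgctgtc
Fas probe 2: ggtaactcagtagtaaattaccttcaagca
Tnfsf13b probe 1: gaaaagactcttcttctgaacacatcactg
Tnfsf13b probe 2: cactggagataacaaaagagggggaacgtc
Tnfsf12 probe: aagatactatttttattattattgtgacaa
Tnfsf13 probe: tcactatctcactattgcgtccaaattctt
Ltb probe: gtggactacaggagagggaagaccttcttc
Ltbr probe: agtagcattaccacatgtggaggacagttt

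Of the 35 members, 15 (42.9%) were detected on all 4 arrays, against 50.9% of the 21090 named genes and 54.7% of the 18922 protein-coding genes on the array. A further 3 members (Lta, Tnfsf13b and Tnfrsf18) were detected on 1 to 3 arrays, beside 7.89% of named genes, and 17 on none. Ligands gave 7 of 15 and receptors 8 of 20. By role, all 3 of the lymphotoxin, RANK and TWEAK receptors were detected, 3 of 5 death domain receptors, 3 of 7 costimulatory ligands, 1 of 6 costimulatory receptors and 0 of 3 BAFF and APRIL receptors. These counts are a description, and no test was run on them.

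**Figure D1:**
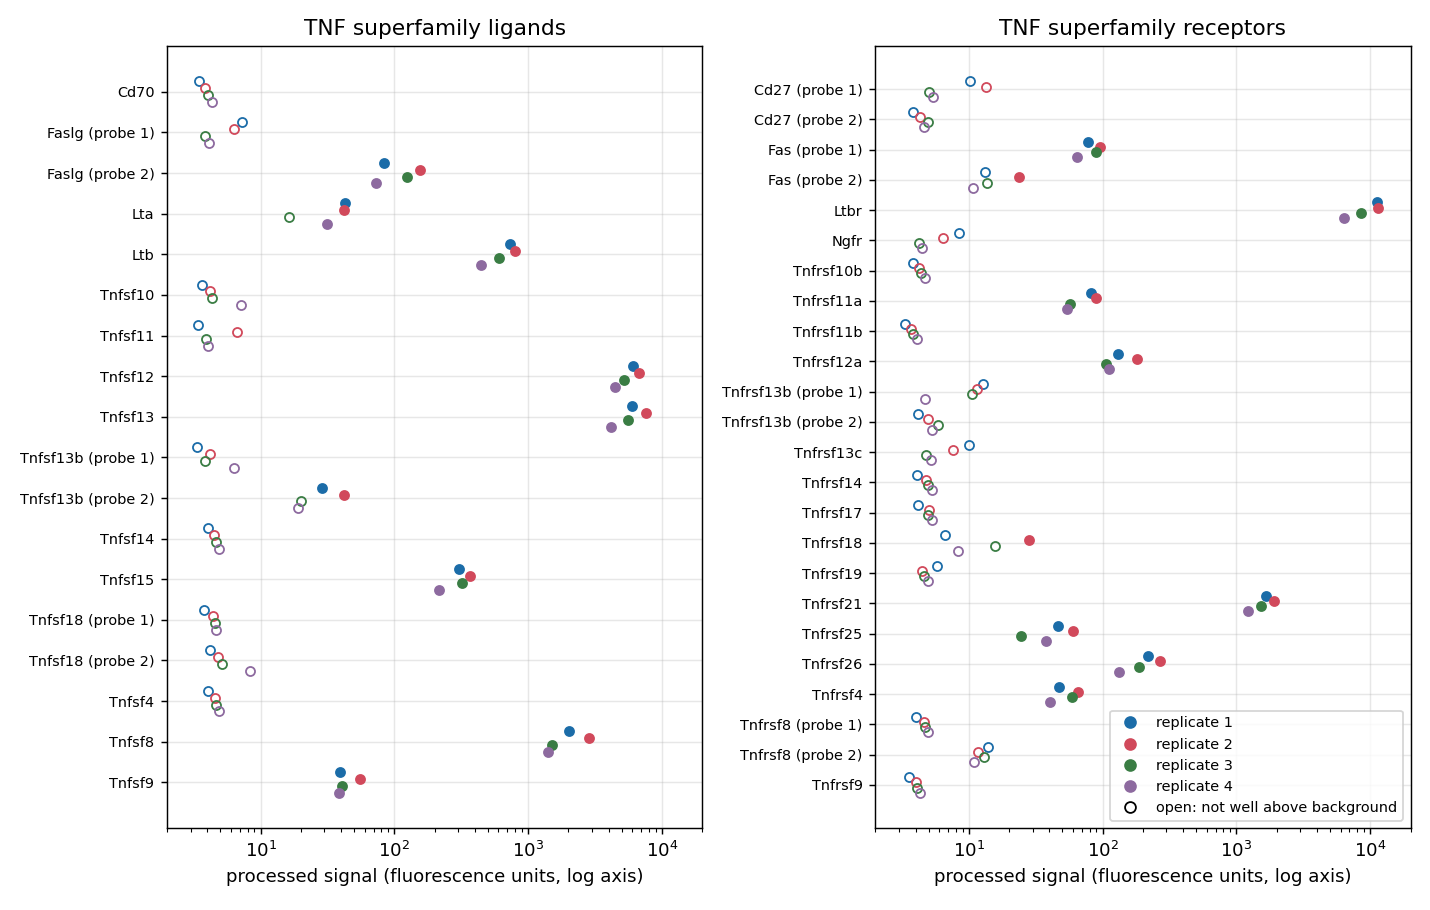
Processed signal (fluorescence units, log axis) of the 42 member probes on each of the 4 arrays, ligands at left and receptors at right. Filled points were well above background and open points were not; probes of 1 gene are numbered by their position in the transcript. Probes detected on no array gave 3.32 to 13.96 units, and Lta, Tnfsf13b probe 2, Tnfrsf18 and Fas probe 2 are mixed. The call is made on signal, so a split by signal is no separate observation. Tnfrsf8 gave 13.96 units on replicate 1, where the lowest signal called over the array was 13.4.

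TWEAK, APRIL and the ligand of Tnfrsf8 were the ligands above the 75th percentile on every array. Tnfsf12, which encodes TWEAK, a ligand of tissue repair and inflammation, gave 6044, 6757, 5222 and 4450 units (level 2.19 ± 0.03, SD, n = 4). Tnfsf13, which encodes APRIL, a survival factor for plasma cells, gave 6010, 7581, 5592 and 4184 units (2.23 ± 0.09). The SD of Tnfsf12 was 0.31 times that of probes of like signal, and that of Tnfsf13 was 0.99 times. With spike-in controls as the scale these were 0.84 and 0.97 times. The genes are direct neighbours among protein-coding genes of the RefSeq annotation, and their probes lie at rn4 chr10:56503800-56503859 and chr10:56500182-56500241, both on the minus strand. Tnfsf8, whose product binds Tnfrsf8 on lymphocytes, gave 2034, 2873, 1515 and 1396 units (0.62 ± 0.25), highest on replicate 2. Its only probe, like that of Tnfsf9, has no rn4 position. Tnfsf15, the ligand of Tnfrsf25 and the direct neighbour of Tnfsf8, gave 303, 370, 318 and 217 units (-2.04 ± 0.11).

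The other ligands detected on all arrays were lymphotoxin beta, Tnfsf9 and Faslg. Ltb, which anchors lymphotoxin at the membrane and signals through Ltbr, gave 728, 794, 604 and 445 units (-0.96 ± 0.11). Lta, its soluble partner, gave 43.0, 42.0, 16.3 and 31.6 units and was well above background on replicates 1, 2 and 4. Lta and Ltb flank Tnf, with no other protein-coding gene between them, and Tnf itself, which is no member, was detected at 0.92 ± 0.11. Tnfsf9, a costimulatory ligand for T cells, gave 39.5, 55.1, 40.5 and 38.7 units (-4.83 ± 0.18). Its neighbours Cd70, from which 1 gene separates it, and Tnfsf14 were detected on no array.

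Faslg, the ligand that triggers Fas, was called by 1 of its 2 probes, and that probe carries the TG run shown above. Probe 2 gave 84.0, 155, 125 and 72.5 units (-3.55 ± 0.36) at rn4 chr13:77471319-77471378. Probe 1, at chr13:77472996-77473055, was not well above background on any array and gave 3.86 to 7.29 units. The probes name different transcript records, probe 1 at position 1517 and probe 2 at position 4068. The part of this difference in the calls was not tested. Across the whole array, 49 of 51 probes with at least 7 TG or GT repeats were detected (96.1%), against 42.3% of the 43859 probes with runs under 3. The median signal was 2863 units for the 51 probes and 15.3 for the 43859. No other member probe had a run above 2. What the signal of Faslg probe 2 owes to the repeat was not tested, and without such probes 14 members were detected.

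**Figure D2:**
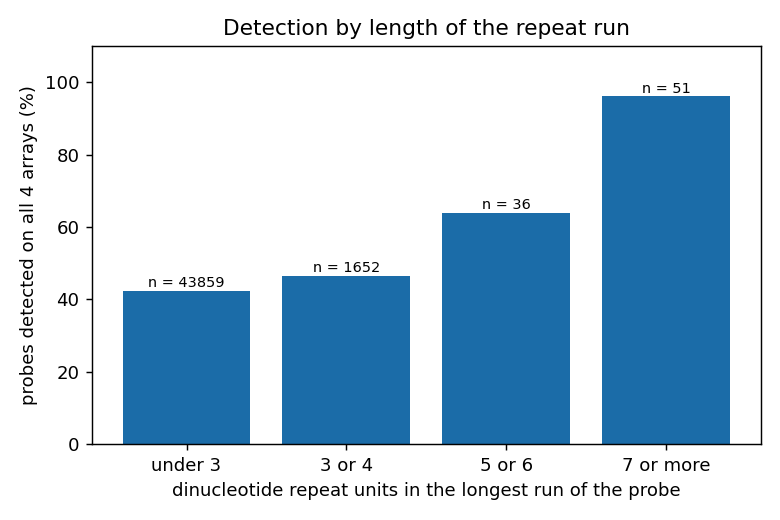
Share of non-control probes detected on all 4 arrays (%), by the number of dinucleotide (TG or GT) units in the longest run of the probe, with the number of probes above each bar. Detection is 42.3% under 3 units, 46.6% at 3 or 4, 63.9% at 5 or 6 and 96.1% at 7 or more; the detected Faslg probe is in the last class.

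Among receptors, the lymphotoxin beta receptor and death receptor Tnfrsf21 were above the 75th percentile on every array. Ltbr, which signals to alternative NF-kB, gave 11285, 11531, 8484 and 6405 units (2.91 ± 0.15), with its probe at rn4 chr4:161431938-161431997 on the minus strand. Tnfrsf21, a death domain receptor best known in neurons and T cells, gave 1658, 1907, 1531 and 1228 units. Relative to the 75th percentile it hardly moved, at 0.33, 0.36, 0.38 and 0.36 (0.36 ± 0.02). In the lymphotoxin, RANK and TWEAK class, Tnfrsf12a, the TWEAK receptor, gave 131, 180, 106 and 113 units (-3.23 ± 0.20), and Tnfrsf11a, which encodes RANK, gave 81.2, 88.8, 56.9 and 53.8 units (-4.15 ± 0.16). The RANK ligand Tnfsf11 and its decoy receptor Tnfrsf11b were detected on no array. Of 5 osteoclast markers, Acp5, Calcr and Oscar were detected, Dcstamp passed on 3 arrays, and Ctsk on none.

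Fas, the prototype death receptor, also rested on 1 of 2 probes. Probe 1, at transcript position 164 and rn4 chr1:238259523-238259582, gave 78.3, 95.6, 88.9 and 64.0 units (-3.92 ± 0.14) and was detected on all arrays. Probe 2, at position 2494 and chr1:238274686-238274745, gave 13.2, 23.9, 13.7 and 10.7 units and passed on replicate 2. Among all genes with 2 probes of which at least 1 was detected, 33.8% had exactly 1 detected, and both such members did. Tnfrsf25, the death domain receptor for Tnfsf15, gave 46.8, 60.3, 24.7 and 37.6 units (-4.92 ± 0.44), lowest on replicate 3. Tnfrsf26, known in the mouse as a relative of decoy receptors for TRAIL, gave 219, 269, 187 and 133 units (-2.64 ± 0.16). Tnfrsf4, a costimulatory receptor of activated T cells, gave 47.1, 65.5, 59.5 and 40.6 units (-4.55 ± 0.20). Its neighbour Tnfrsf18, of like function, gave 6.59, 28.3, 15.7 and 8.29 units and passed on replicate 2.

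The members detected on some arrays did not all pass on the same ones. Tnfrsf18 and Fas probe 2 passed on replicate 2, which had the highest 75th percentile, and Tnfsf13b on replicates 1 and 2. Lta passed on replicate 4, which had the lowest, and not on replicate 3. Tnfsf13b encodes BAFF, the survival factor of naive B cells, and its probe 2 gave 28.9, 41.8, 20.2 and 19.1 units. Its probe 1 gave 3.32, 4.18, 3.82 and 6.31 units and was not well above background on any array. These probes too name different transcript records, probe 1 at position 871 and probe 2 at position 1642. The lowest signal called well above background was between 13.4 and 19.8 units on the 4 arrays. The part of array brightness in these calls was not tested.

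The 17 members detected on no array were the ligands Cd70, Tnfsf4, Tnfsf10, Tnfsf11, Tnfsf14 and Tnfsf18 and the receptors Cd27, Ngfr, Tnfrsf8, Tnfrsf9, Tnfrsf10b, Tnfrsf11b, Tnfrsf13b, Tnfrsf13c, Tnfrsf14, Tnfrsf17 and Tnfrsf19. Their 21 probes gave 3.34 to 13.96 units. They include the death ligand TRAIL (Tnfsf10) with its receptor Tnfrsf10b, and every BAFF and APRIL receptor measured. Of these genes, 13 were measured by 1 probe, and a failure of that probe was not tested for. Of the 42 member probes, 5 span more of rn4 than their own length, namely 1 each for Tnfrsf8, Tnfrsf9, Tnfsf10, Tnfsf13b and Tnfsf14, and 0 of these 5 were detected on all arrays. Over the array, 46.7% of probes with such a span were detected, and 42.0% of those without.

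Set against their partners, 4 of 21 ligand and receptor pairs had both genes detected. These were Ltb with Ltbr, Tnfsf12 with Tnfrsf12a, Tnfsf15 with Tnfrsf25, and Faslg with Fas, the last resting on the repeat-bearing probe. In 4 pairs the ligand alone was detected: Tnfsf13 without Tnfrsf13b or Tnfrsf17, Tnfsf8 without Tnfrsf8, and Tnfsf9 without Tnfrsf9. In 3 pairs the receptor alone was detected: Tnfrsf11a without Tnfsf11, Ltbr without Tnfsf14, and Tnfrsf4 without Tnfsf4. The remaining 10 pairs had neither on all 4 arrays. Some genes recur across pairs, so the pairs are not separate observations. No share for other pairs of genes was computed, and 50.9% of single named genes were detected. A pair detected as RNA in a culture says nothing of binding or signalling.

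Downstream of the receptors, 18 of 21 adaptors, kinases and other signalling genes on the array were detected, a share of 85.7%. This stood beside 50.9% of named genes and 54.7% of protein-coding genes. Those detected include Traf2, Traf3, Traf6 and the death domain adaptors Tradd and Fadd (-3.51 ± 0.06). The NF-kB subunits Nfkb2 (0.46 ± 0.09) and Relb (-0.29 ± 0.31) are also among them. The 3 exceptions were Traf1 and Birc3, on no array, and Map3k14, the kinase of alternative NF-kB, at 26.0, 39.7, 26.7 and 16.8 units on 3 arrays. Of 9 family genes outside the rule, Tnf, Tnfrsf1a, Cd40, Eda and Relt were detected. Cd40 was called by 1 of its 3 probes and Eda by 1 of 2. Tnfrsf1b passed on 2 arrays, Eda2r on 1, and Cd40lg and Edar on none.

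The median SD over the 4 arrays was 0.157 log2 units for the 15 detected members, from 0.018 for Tnfrsf21 to 0.44 for Tnfrsf25, beside 0.114 for all 10728 detected genes. With spike-in controls as the scale the members' median SD was 0.536, so the spread depends on how arrays are scaled. The SD of probes of like signal was 0.094 at the level of Ltbr and 0.27 at that of Tnfrsf25. The 0.114 of all detected genes was not matched to the members in signal, so it cannot show whether members vary more. Set against probes of like signal, the SD of members ran from 0.18 times (Tnfrsf21) to 2.46 times (Tnfsf8). The middle one of the 15 was Ltb, at 0.95 times. In limma's test of variance against probes of like signal, 0 of the 15 member probes passed at an adjusted p of 0.05, beside 0.17% of the 19400 detected probes. Without adjustment, at 0.05, the test gave 1 member, Tnfsf8, beside 6.5% of all detected probes. Its SD was 2.46 times that of probes of like signal, its levels were 0.63, 0.95, 0.36 and 0.54, and its adjusted p was 0.63 in limma. Without replicate 2 that SD was 1.27 times, without replicate 3 it was 2.15 times, and on the spike-in scale 1.17 times, and in none of these did Tnfsf8 pass 0.05 without adjustment. It also did not pass when the prior ignored signal. In the other settings Tnfsf8 did pass 0.05 without adjustment, though never after it. Without replicate 4 its SD was 3.31 times that of probes of like signal (unadjusted p of 0.0065 in limma). Without replicate 1 it was 2.77 times (unadjusted p of 0.016 in limma). Faslg probe 2 also passed 0.05 without adjustment when replicate 4 was left out (p of 0.033 in limma). It did so too with no filter on dim probes (p of 0.046 in limma). Tnfrsf25 passed 0.05 without adjustment when the prior ignored signal (p of 0.038 in limma). By Dixon's ratio no array stood apart in any of the 15 members, beside 5.15% of detected genes. Replicate 2 was highest in 5 of 15 (25% of detected genes) and replicate 4 lowest in 5 of 15 (27.7%). Simulations put the share called at 6.5% for a 4-fold raised SD and at 71.5% for an 8-fold raised SD, so smaller differences in spread could be missed. In a culture, fewer cells that carry a transcript and less of it per cell cannot be told apart.

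**Figure D3:**
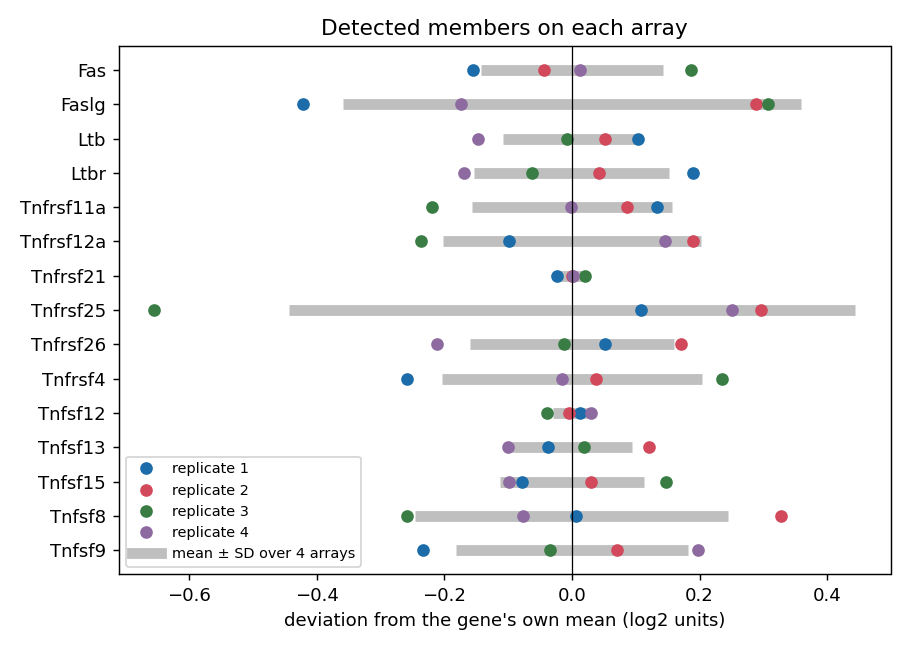
Deviation of each of the 15 detected members from its own mean on the 4 arrays (log2 units), with a grey bar for ± 1 SD. Tnfrsf21 and Tnfsf12 have an SD of 0.018 and 0.029, while Tnfrsf25 is low on replicate 3, Tnfsf8 is high on replicate 2, and Faslg is lower on replicates 1 and 4 than on 2 and 3.

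Ltbr and Tnfrsf12a were each printed on 10 spots, the other 40 member probes on 1. Spots of Ltbr on 1 array had an SD of 0.033 to 0.068 log2 units, and its SD between arrays was 0.153. Spots of Tnfrsf12a had an SD of 0.071 to 0.148, and its SD between arrays was 0.202. Spot noise within an array leaves out every difference between samples, so the SD of spots describes the measurement alone. The SD between arrays also holds any difference between samples.

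**Figure D4:**
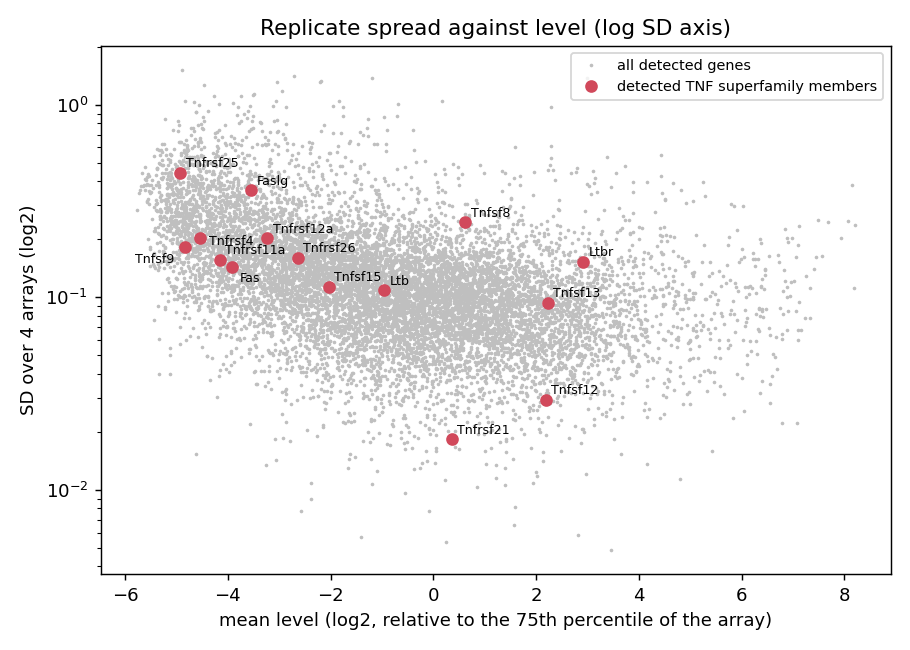
SD over 4 arrays (log2, log axis) against mean level (log2, relative to the 75th percentile) for all 10728 detected genes, in grey, and the 15 detected members, in red and named. Members lie within the cloud of genes of like level; Tnfrsf21 and Tnfsf12 have low spread and Tnfsf8, Faslg and Tnfrsf25 are towards its upper side.

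CpG dinucleotides were counted in the promoters of the members. RefSeq promoters of GRCr8, 250 bases before to 50 after the start, were matched for 26 of 35 members; those of Ngfr, Tnfrsf10b, Tnfrsf11a, Tnfrsf11b, Tnfrsf14, Tnfrsf18, Tnfsf12, Tnfsf4 and Tnfsf9 were not matched. The 12 detected members had a median of 6.5 CpG, from 2 to 20, beside a median of 21 for 8675 detected protein-coding genes and 7 for all 27457 promoters. The 14 other members had a median of 6.5, from 4 to 14, beside 6 for 6837 other protein-coding genes. Of the detected members, Ltbr (20), Tnfrsf12a (19) and Tnfrsf21 (17), all receptors, had the most, and each of the other 9 had 10 or fewer. No test was run on these counts.

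The ligand Ltb and its receptor Ltbr, a detected pair, show both ends of that range. Their promoters are given 5′ to 3′ on the gene's strand, from chr20:3634005-3634304 and chr4:159801467-159801766 of GRCr8, both on the minus strand, with CG in capitals.
Ltb promoter: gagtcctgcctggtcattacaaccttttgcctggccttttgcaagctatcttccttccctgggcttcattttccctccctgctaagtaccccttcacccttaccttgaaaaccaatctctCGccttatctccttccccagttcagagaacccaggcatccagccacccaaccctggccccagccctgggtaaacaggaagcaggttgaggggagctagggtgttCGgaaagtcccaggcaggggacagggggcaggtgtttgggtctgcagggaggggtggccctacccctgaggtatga
Ltbr promoter: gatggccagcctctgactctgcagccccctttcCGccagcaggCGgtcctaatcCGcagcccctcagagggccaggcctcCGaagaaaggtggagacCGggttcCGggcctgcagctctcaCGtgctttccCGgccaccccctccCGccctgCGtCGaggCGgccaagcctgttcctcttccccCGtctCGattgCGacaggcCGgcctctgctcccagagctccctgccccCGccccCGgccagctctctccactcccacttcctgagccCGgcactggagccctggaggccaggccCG

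**Figure D5:**
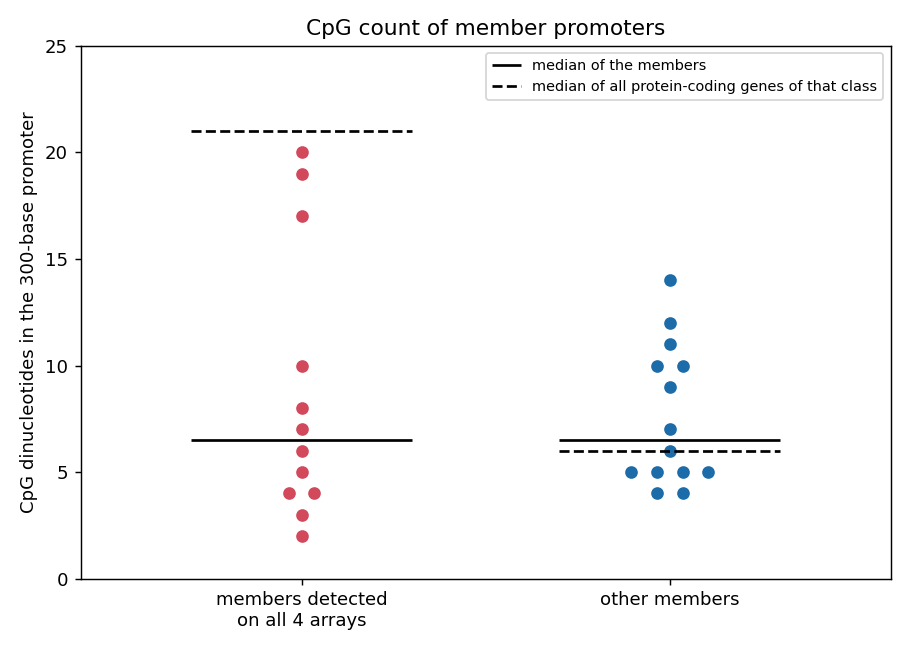
Number of CpG dinucleotides in the 300-base promoter of each member, for the 12 members detected on all 4 arrays at left and the 14 other members at right. Solid lines are the medians of the members (6.5 in both classes) and dashed lines those of all detected (21) and all other (6) protein-coding genes; 3 detected members reach 17 to 20 and the other 9 lie at 10 or below.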

How the data were processed

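Cy3-labelled cRNA made from 100 ng RNA (integrity number above 7.5) of each of 4 samples was measured on Agilent arrays in 1 colour, per the labels' protocols. The deposited values were fluorescence intensity per spot, which the authors extracted from the scans with Agilent Feature Extraction, version 11.0.1.1 per the submitters' processing notes. The processed intensity was corrected for background and spatial trends and was not normalized between arrays. Low spots hold surrogate values set by the software, so signals of undetected probes have no order. All 4 arrays lay on 1 slide with 1 scan, so no batch could be tested. No spot was saturated, and the number of arrays limits the precision.

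Each array was scaled by the 75th percentile of its non-control processed signals, on the log2 scale, and unflagged spots of a probe were averaged. A gene takes the level of the brightest probe detected. Array names were matched to RefSeq (GRCr8) by accession, symbol or older symbol for 29251 of 45598 probes, and all 42 member probes matched their own symbol. Probe coordinates come from the deposited files (rn4, per the file headers). Exons and UTRs were not annotated. The test of variance used limma 3.58.1 (R 4.3.3), with a robust prior that follows signal, an upper-tail F test and Benjamini-Hochberg adjustment over 19400 detected probes. The test was tried on simulated data. Python 3.11.15, numpy 2.4.6, pandas 2.3.3 and matplotlib 3.10.9 were used.

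Members and gene lists were chosen with earlier results of these data known. Every member is named, with values for each array where it was detected on any. The repeat search and the promoter counts were chosen after the data were seen. Where the labels do not say that samples came from separate cultures, the spread between them may be technical. One marker gene is not reported here.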

Additional observations from a re-analysis of the deposited data

How the results depend on the processing

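No paired analysis was possible because all 4 samples form a single group. The 15 members detected on all arrays became 19 with the positive and significant flag, adding Lta, Tnfrsf8, Tnfrsf18 and Tnfsf13b (62.1% of all named genes), and 17 on at least 2 arrays, adding Lta and Tnfsf13b (55.6%). They became 13 with every probe of a gene required, which leaves out Fas and Faslg (43.7%), and 14 without repeat-bearing probes (50.8%), a setting chosen after seeing the data. With a replicate left out they numbered 15 to 16 (50.9% to 52.1%), where Lta joined without replicate 3. Detected pairs numbered 3 to 5 over these settings, the fifth being Tnfsf8 with Tnfrsf8 under the positive and significant flag. Under all 13 alternatives of limma's variance test 0 members passed, and the smallest adjusted p of a member was 0.10, with no filter on dim probes. Several alternatives called 0 probes on the whole array: a threshold of 0.01, replicate 3 left out, a prior that ignored signal, and a non-robust prior. The spike-in scale called 2. In these settings the count of 0 members says nothing of the members. The other settings called from 29 probes (quantile normalization) to 1121 (no filter on dim probes). The median SD of the 15 members was 0.124 to 0.171 with a replicate left out, but 0.536 when bright spike-in controls set the scale, since their log2 signal exceeded that percentile by 4.53, 4.54, 5.10 and 5.50 on the 4 arrays. Levels moved beyond 1 SD for 15 of 15 members when another quantity set the scale (spike-ins or the median of detected probes). Such a change shifts the mean level of every gene by the same amount, so that count says nothing of the members. Levels moved for 11 of 15 with normexp, and for 0 of 15 with quantile normalization. The alternative with slide as a block was not run, as there was 1 slide. Members near background, such as Lta, Tnfsf13b, Tnfrsf8 and Tnfrsf18, are those whose call depends on the flag.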
